A study of Homo sapiens with 36 samples.

Results

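The respiratory chain was described here through the transcripts of 52 of its subunits, 13 encoded by mitochondrial DNA and 39 encoded in the nucleus, out of 58302 gene IDs counted in each library. The members were chosen by symbol and matched to their Ensembl IDs with GENCODE. No measured value entered that rule, but earlier results of these data were known when the members were chosen. Reads had been counted in 36 RNA sequencing libraries of JEKO, MINO and UPN-1, which are established human mantle cell lymphoma lines. Cells of each line had been given DMSO as vehicle or GS716054, which inhibits the KDM5 demethylases of histone H3, and were collected after 24 h or 72 h. Each of the 12 groups held 3 libraries labelled as biological replicates. All groups shared the same medium with serum, and each lymphoma was represented by 1 line, so a difference between lines is a difference between these lines. The labels say no more of the replicates' origin, so p-values measure the spread between these libraries. The B-cell and mantle cell lymphoma markers CCND1, SOX11, PAX5 and MS4A1 had reads in all 12 libraries of each line, with CCND1 at 1210 to 3094 CPM (read counts scaled to library size). CD5 was low in UPN-1, at 0.834 to 6.04 CPM. CD3E, a T-cell marker, was at most 4.13 CPM, whereas TRAC, the T-cell receptor alpha constant gene, reached 32.3 to 173 CPM in these lines.

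The respiratory chain passes electrons from NADH and succinate to oxygen through complexes I to IV in the inner mitochondrial membrane, and complex V uses the resulting proton gradient to make ATP. Mitochondrial DNA encodes core subunits of complexes I, III, IV and V and none of complex II, so most complexes are assembled from parts made in different compartments, and the sets of genes are transcribed by different polymerases. The KDM5 enzymes remove methyl groups from lysine 4 of histone H3, a mark of active promoters in the nucleus, whereas mitochondrial DNA carries no histones.

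The mitochondrial genome is compact, and places where its protein-coding genes overlap by several bases bear on what a read count of these genes can show. The first is the overlap of MT-ATP8 and MT-ATP6, both subunits of complex V, at chrM:8527-8572 of GRCh38, and the second is the overlap of MT-ND4L and MT-ND4, both subunits of complex I, at chrM:10760-10766. Each stretch is printed from the plus strand of GRCh38, at chrM:8515-8584 and chrM:10748-10778, with the start codon of the second gene and the stop codon of the first in capitals.
MT-ATP8/MT-ATP6: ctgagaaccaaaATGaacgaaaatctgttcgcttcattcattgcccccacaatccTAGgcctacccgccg
MT-ND4L/MT-ND4: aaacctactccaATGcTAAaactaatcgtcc
The first overlap spans 46 bases, or 22.2% of MT-ATP8, and the second spans 7 bases. MT-ATP8 was counted at 0.726 to 32.8 CPM over all libraries, while MT-ATP6, its neighbour, was counted at 765 to 2827 CPM. A read that touches both genes can be set aside as ambiguous by a counting tool, and how many were set aside was not tested, so MT-ATP8 is reported as uncertain.

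The nuclear members have promoters of their own, and 3 are printed because they carry the motifs that are best known at genes of this kind: that of NRF1, that of ETS factors such as GABPA, or both. Promoters were found for 33 of the 39 nuclear members in RefSeq (GRCh38.p14), and the 250 bases before each start were searched on both strands for the NRF1 palindrome, which stands in capitals in the ATP5F1C line, for CCGGAAG (ETS) and for the core of the YY1 motif. Each stretch below is 120 bases on the plus strand, with matches in capitals: SDHD at chr11:112086753-112086872, ATP5F1C at chr10:7788057-7788176 and NDUFS3 at chr11:47578954-47579073.
SDHD: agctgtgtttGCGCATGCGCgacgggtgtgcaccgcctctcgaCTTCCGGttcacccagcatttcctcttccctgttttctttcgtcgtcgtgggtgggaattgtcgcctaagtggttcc
ATP5F1C: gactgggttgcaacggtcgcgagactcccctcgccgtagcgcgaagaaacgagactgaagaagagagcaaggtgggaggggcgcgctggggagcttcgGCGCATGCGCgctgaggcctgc
NDUFS3: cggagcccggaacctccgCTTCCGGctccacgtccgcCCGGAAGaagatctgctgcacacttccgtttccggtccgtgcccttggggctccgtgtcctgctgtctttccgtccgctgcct
The NRF1 letters stood in 2 of the 33 promoters (6.06%), SDHD and ATP5F1C, against 362 of 35116 promoters in the table (1.03%). The ETS letters stood in 9 of 33 (27.3%), against 2991 of all promoters (8.52%), and the YY1 letters in 0 of 33, against 87 of all (0.248%). These matches describe the sequence and show no binding.

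The libraries held 8784815 to 14970876 gene reads (median 11926903), and 3 reads were worth 0.196 to 0.353 CPM. All members of the mitochondrial set passed the filter on low counts in every line. Of the nuclear set, all 39 passed in JEKO, 38 in UPN-1 (NDUFV2 did not) and 37 in MINO (NDUFB8 and NDUFV2 did not). NDUFB8 and NDUFV2 stayed at or under 1.58 and 1.37 CPM in every library. A further gene of the annotation lies over 33.8% of the exons of NDUFB8 and 28.4% of those of NDUFV2 on the same strand, and 35.4% of those of COX8A, which was counted at 10.8 to 30.5 CPM, so the counts of these genes are uncertain. Same-strand overlap was smaller for NDUFS3 (16%), ATP5PO (15.5%), SDHD (11.4%) and NDUFA9 (10.6%), and its effect was not tested. Of these, ATP5PO was counted at 8.35 to 18.3 CPM and NDUFA9 at 6.17 to 20.6 CPM. The strand setting of the counting was not given, which leaves MT-ND6, the only member on the light strand of mitochondrial DNA, and NDUFS7, with 51.4% of its exons under a gene of the opposite strand, uncertain in the same way. Among nuclear copies of mitochondrial genes, MTATP6P1 on chromosome 1 had 6.56% to 16.4% as many reads as MT-ATP6 and MTND2P28 had 4.98% to 8.08% as many as MT-ND2, so reads may be divided between each gene and its copy. SDHA and CYCS also have pseudogenes, and their reads may be divided likewise. Reads in pseudogenes of the nuclear members were not examined. The JEKO GS716054 24 h library of replicate 2 stood apart: among the 6 JEKO libraries of that time it was the lowest for 33 of 39 nuclear and 10 of 13 mitochondrial members.

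Mitochondrially encoded transcripts took a larger share of gene reads than the nuclear set in every library, and the lines differed in that share. The 13 mitochondrial mRNAs made up 1.2% to 2.9% of gene reads in UPN-1, 2.3% to 4.36% in JEKO and 2.56% to 5.88% in MINO. The 39 nuclear members made up 0.496% to 0.68% in UPN-1, 0.613% to 0.959% in JEKO and 0.391% to 0.654% in MINO. All 12 MINO libraries had more mitochondrial reads per nuclear member read than any UPN-1 library, at 5.25 to 10.7 against 1.83 to 4.8, and JEKO lay at 2.87 to 7.02. In these bulk libraries, fewer copies of mitochondrial DNA per cell and less RNA per copy cannot be told apart.

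**Figure D1:**
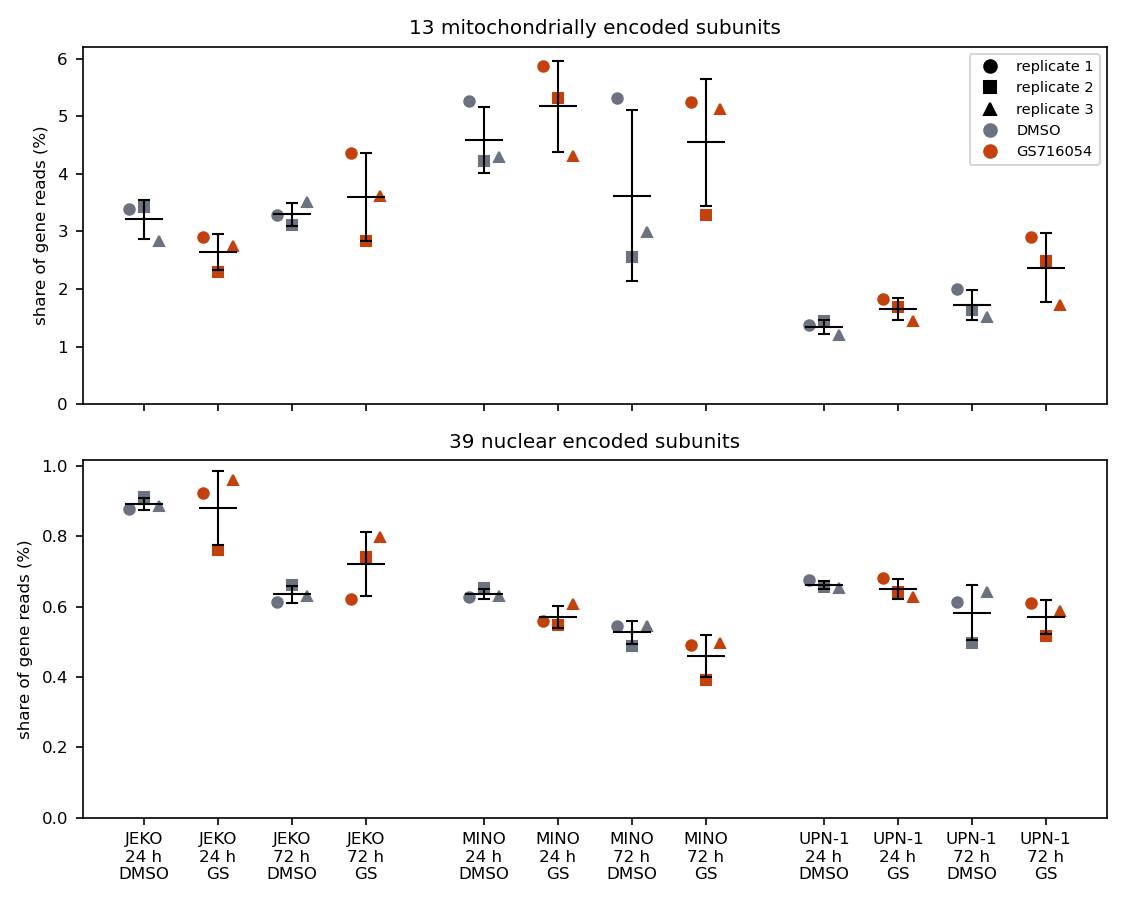
Share of gene reads (%) in the 13 mitochondrially encoded subunits (top) and the 39 nuclear encoded subunits (bottom) in each of 36 libraries, by line, time and treatment (GS is GS716054). Symbols are single libraries, with shapes for the replicate number, and bars are the mean ± SD of 3 libraries. UPN-1 libraries lie at 1.2% to 2.9% in the top panel, and JEKO DMSO libraries go from 0.892% at 24 h to 0.635% at 72 h in the bottom panel.

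MT-CO1, the catalytic subunit of complex IV, had the highest median per length of all members, with a median over 12 libraries of 3015 CPM per kb in UPN-1, 6128 in JEKO and 10923 in MINO. MT-CO2 and MT-CO3, the other 2 mitochondrial subunits of complex IV, followed in each line, at 1869 and 2238 CPM per kb in UPN-1, 4273 and 4214 in JEKO, and 8041 and 10649 in MINO. The order of MT-CO2 and MT-CO3 in JEKO was within their spread. Among mitochondrial members MT-ND4L was the lowest after MT-ATP8, at 412, 589 and 895 CPM per kb in the same order of lines. MT-CO1 alone held a median of 29.6% of mitochondrial mRNA reads in UPN-1, 32.3% in JEKO and 32.8% in MINO. MT-CO3 took more in MINO (14.4% to 18.5%) than in JEKO (8.67% to 12.2%) or UPN-1 (9.88% to 11.8%), with no overlap between MINO and the others. MT-ATP6 took 6.29% to 8.32% in UPN-1, above all libraries of JEKO (3.78% to 5.4%) and MINO (3.11% to 4.84%).

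In vehicle-treated cells at 24 h, mitochondrially encoded mRNA was lowest in UPN-1 and highest in MINO. Against MINO, 12 of 13 members were lower in UPN-1 at an adjusted p under 0.05 in edgeR's quasi-likelihood test of all 36 libraries, with a median log2 fold change of −1.58, where 44.4% of all genes tested differed in either direction and 21.1% were lower. MT-CO2, which receives electrons from cytochrome c, had 1075, 1010 and 812 CPM in UPN-1 and 6585, 4942 and 5420 CPM in MINO. That difference was −2.55 on the log2 scale (SE 0.299, adjusted p = 2.2e-08), the largest among the members, and the libraries did not overlap. MT-CO3 followed at −2.43 (SE 0.263, adjusted p = 4.26e-09) and MT-CO1 at −1.98 (SE 0.247, adjusted p = 6.65e-08). MT-ND2, a membrane subunit of complex I, differed least, at −1.07 (SE 0.275, adjusted p = 0.00194). MT-ATP8 did not pass (−1.58, SE 0.744, adjusted p = 0.0848).

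Against JEKO, 9 of 13 members were lower in UPN-1 (median −1.02), beside 44.9% of all genes that differed and 23.8% that were lower. MT-CO2 had 3355, 3053 and 2632 CPM in JEKO and differed by −1.64 (SE 0.29, adjusted p = 2.2e-05). MT-ND1 differed by −1.54 (SE 0.252, adjusted p = 7.31e-06) and MT-ND6 by −1.53 (SE 0.245, adjusted p = 5.47e-06). The members that did not pass were MT-ND3 at −0.21 (SE 0.318), MT-ATP6 at −0.40 (SE 0.295), MT-ATP8 at −0.25 (SE 0.771) and MT-CYB at −0.71 (SE 0.31), with adjusted p values of 0.623, 0.281, 0.821 and 0.0631. The complex IV subunits thus differed by −1.21 to −1.64, while MT-ATP6 of complex V and MT-CYB of complex III did not pass the test.

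MINO was higher than JEKO for 6 of 13 members, beside 48% of all genes that differed and 22% that were higher. MT-CO3 had 9493, 7090 and 8064 CPM in MINO against 3385, 3788 and 3361 CPM in JEKO, which was 1.23 higher on the log2 scale (SE 0.253, adjusted p = 0.000159). MT-ND3, MT-CO2, MT-CYB, MT-ATP6 and MT-CO1 also passed, at 0.94, 0.91, 0.88, 0.71 and 0.64. MT-ND1 and MT-ND2 were at 0.07 (SE 0.246) and 0.24 (SE 0.272), with adjusted p values of 0.847 and 0.483 in the same edgeR test. The count of 6 fell to 2 without the JEKO DMSO 24 h library of replicate 3 and to 2 without the MINO DMSO 24 h library of replicate 1.

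**Figure D2:**
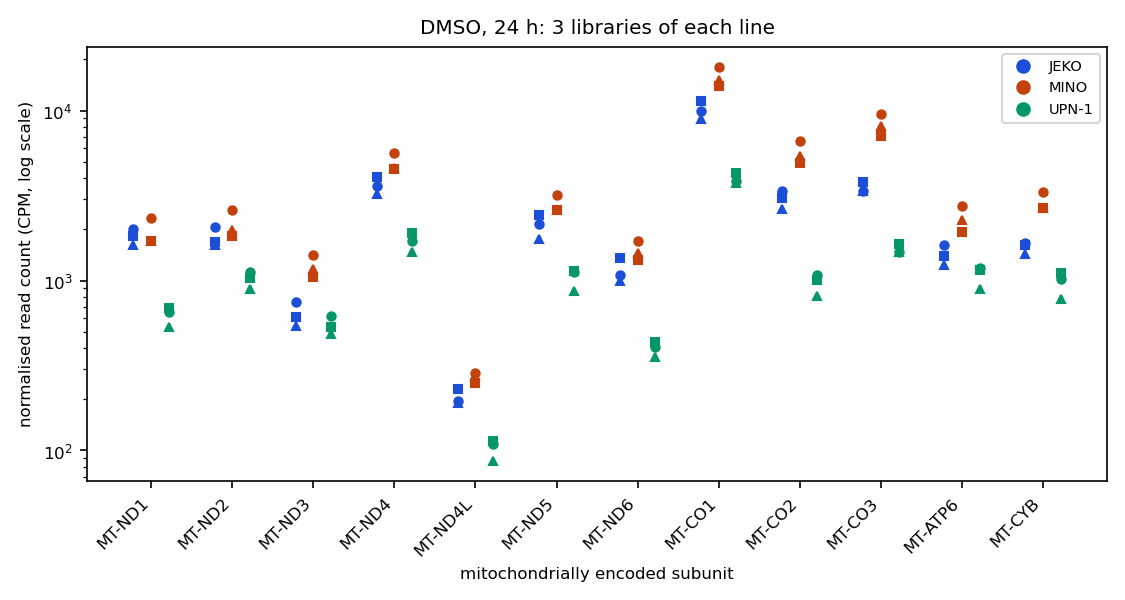
Normalised read count (CPM, log axis) of 12 mitochondrially encoded subunits in DMSO at 24 h, with 1 symbol per library and 3 libraries per line; MT-ATP8 is left out. UPN-1 is the lowest line for MT-ND1, MT-CO1, MT-CO2 and MT-CO3, and MINO is the highest for the 3 MT-CO genes, as for MT-CO2 at 4942 to 6585 CPM against 812 to 1075 in UPN-1.

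The nuclear members did not follow the mitochondrial order. Between UPN-1 and MINO, 9 nuclear members were higher and 6 lower in UPN-1, beside 23.3% and 21.1% of all genes, with a median of 0.18 against a median of −1.58 for the mitochondrial set. Between UPN-1 and JEKO, 4 were higher and 6 lower (median −0.12), beside 21.2% and 23.8% of all genes, and between MINO and JEKO, 7 were higher and 9 lower (median −0.27), beside 22% and 25.9%. SDHD, a membrane anchor of complex II, had 125, 141 and 133 CPM in JEKO, 49.9, 53.6 and 54.1 in MINO and 61.5, 57.8 and 59.2 in UPN-1. It was −1.34 in MINO (SE 0.17, adjusted p = 8.72e-08) and −1.16 in UPN-1 (SE 0.169, adjusted p = 1.17e-06) relative to JEKO in edgeR, so JEKO stood above the other lines with no overlap. ATP5F1A, the alpha subunit of the catalytic head of complex V, had 408, 404 and 394 CPM in UPN-1 against 1015, 1037 and 1030 in JEKO and 848, 800 and 805 in MINO. It was −1.35 relative to JEKO (SE 0.143, adjusted p = 2.9e-09) and −1.02 relative to MINO (SE 0.142, adjusted p = 4.7e-07). ATP5F1B, the beta subunit of the same head, was highest in JEKO, at −1.01 in MINO (adjusted p = 2.34e-06) and −0.99 in UPN-1 (adjusted p = 3.52e-06). The alpha subunit thus differed between UPN-1 and MINO at an adjusted p under 0.05 and the beta subunit did not.

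NDUFA10, an accessory subunit of complex I, was highest in UPN-1, at 145, 159 and 152 CPM against 65.2, 72.5 and 72.2 in JEKO, or 1.12 on the log2 scale (SE 0.109, adjusted p = 5.2e-10). CYC1, the cytochrome c1 of complex III, was 1.04 higher in UPN-1 than in JEKO (SE 0.171, adjusted p = 8.02e-06), and UQCRFS1, its iron-sulphur subunit, was 0.82 higher (SE 0.16, adjusted p = 8.59e-05). COX6C of complex IV was lower in UPN-1 than in MINO (log2 fold change −1.10, SE 0.237, adjusted p = 0.000299), and NDUFA1 of complex I was at −1.03 (SE 0.198, adjusted p = 7.67e-05). NDUFB5, NDUFA2 and ATP5F1C were higher in UPN-1 than in MINO, at 0.83, 0.61 and 0.75. MINO exceeded JEKO for NDUFA1 (0.82), COX6C (0.80) and UQCRB (0.74) and was below it for ATP5F1C (−1.01, adjusted p = 4.16e-07). In complex II and complex V no nuclear member was called higher in MINO or UPN-1 than in JEKO, whereas complexes I, III and IV had calls in either direction over these comparisons.

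GS716054 gave no call among the mitochondrially encoded members in any of the 6 treatment comparisons when each line's 12 libraries were tested with 1 coefficient per group in edgeR, and DESeq2 called 0 as well. The share of all genes called at 24 h and 72 h was 0.018% and 0.3% for JEKO, 2.39% and 5.56% for MINO, and 0.0262% and 0.334% for UPN-1. At an unadjusted p under 0.05, 0 of 13 members passed in each line at 24 h, and at 72 h the count was 1 for JEKO, 1 for MINO and 3 for UPN-1. The share of all genes at that unadjusted threshold is not given here, so these counts describe the members only. The median log2 fold changes of the 13 were −0.35, 0.08, 0.17, 0.23, 0.32 and 0.37 in the same order, while the median over all genes tested lay between −0.03 and 0.01. In UPN-1 all 13 were above 0 at 24 h and at 72 h, in MINO at 24 h they lay between 0.00 and 0.37, and in JEKO at 24 h all 13 were below 0. Without the JEKO library that stood apart, the JEKO 24 h median was −0.19, and all 13 were still below 0, at −0.41 to −0.05.

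**Figure D3:**
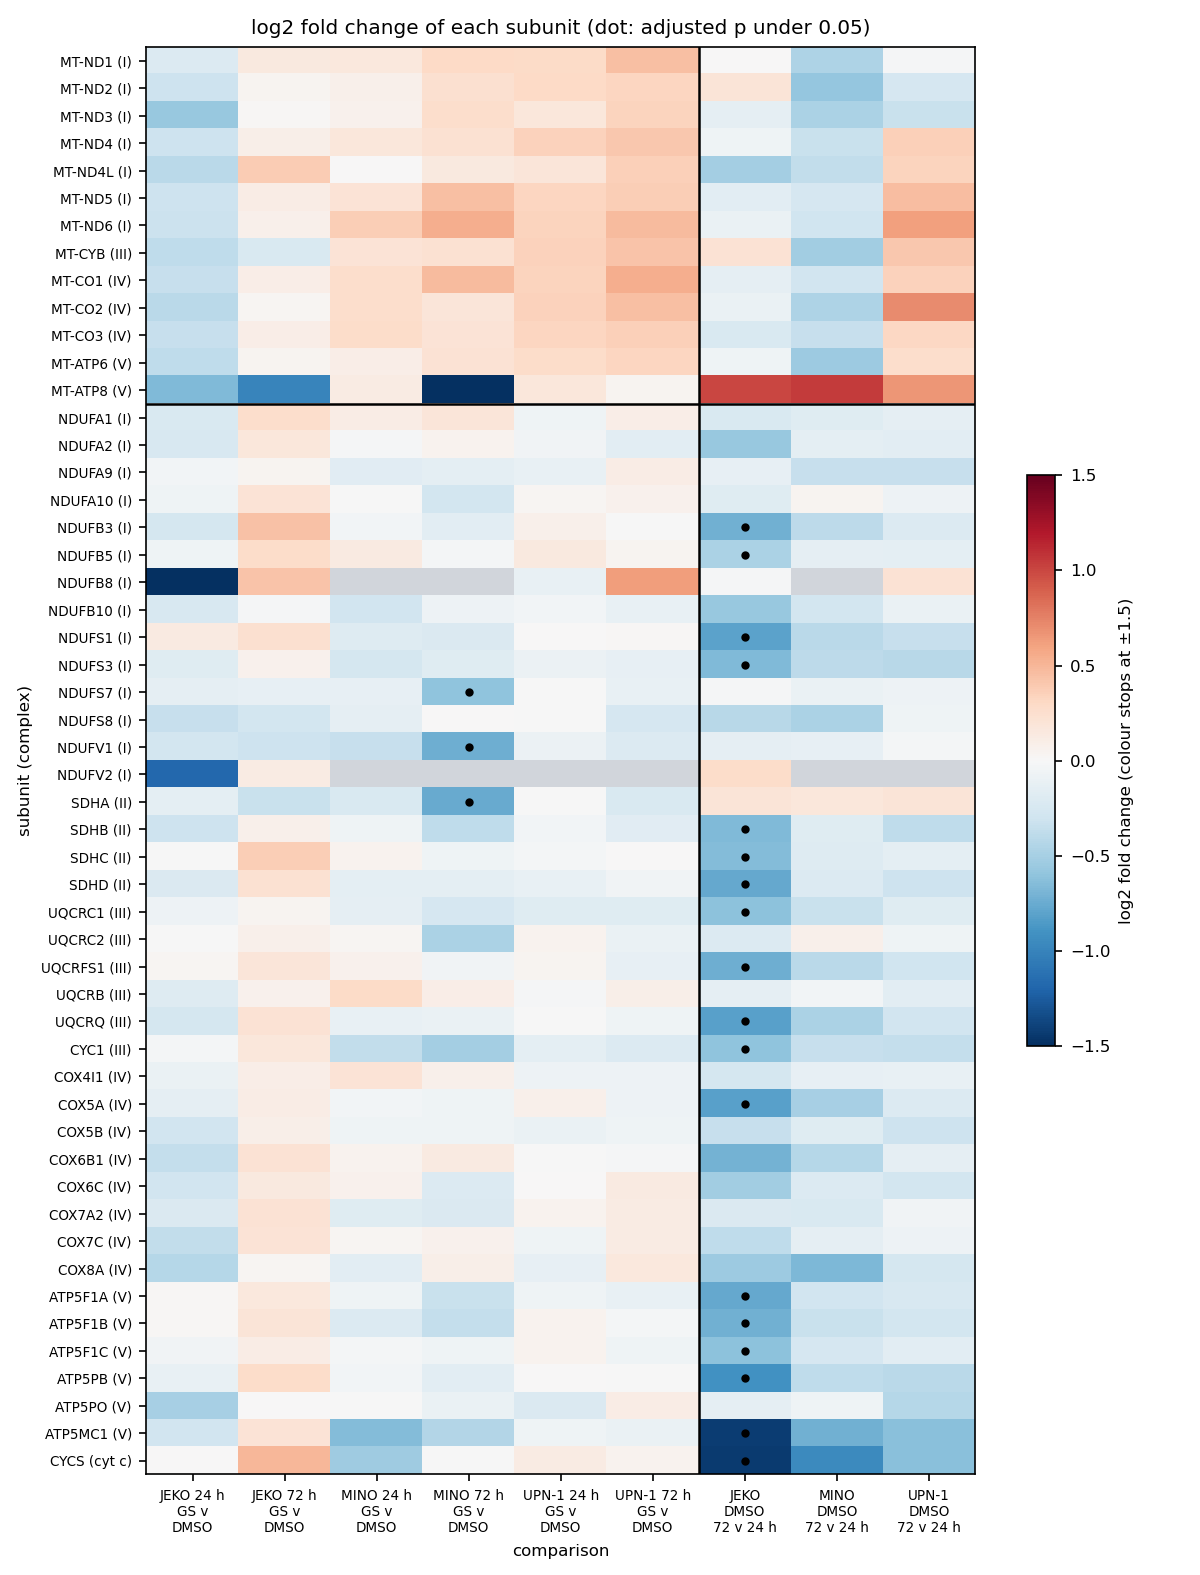
Log2 fold change of each of 52 subunits in 9 comparisons: GS716054 against DMSO in each line at 24 h and 72 h, and DMSO at 72 h against 24 h. Red is higher and blue lower, the colour stops at ±1.5, grey was not tested, a dot marks an adjusted p under 0.05, and the horizontal line parts mitochondrial (top) from nuclear members. The dots are 3 in MINO at 72 h and 18 in JEKO DMSO culture, all below the line.

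UPN-1 at 72 h had the highest median, and its libraries differed by replicate number within each group. MT-CO1 had 6380, 4609 and 4103 CPM in DMSO replicates 1, 2 and 3 and 9678, 7514 and 4690 CPM in the same-numbered GS716054 libraries. MT-CO2 had 1956, 1527 and 1225 CPM against 2674, 2367 and 1331. The treated library was higher within each number, but the groups overlapped because replicate 3 was low in both. MT-ND1, a membrane subunit of complex I, had 654, 553 and 642 CPM in DMSO and 956, 868 and 677 with GS716054, and it was the 1 member of 13 whose groups did not overlap (5.15% of all genes lay wholly higher). Without regard to the number, MT-CO1 was at 0.55 (SE 0.235, adjusted p = 0.596) and MT-ND1 at 0.45 (SE 0.167, adjusted p = 0.47) in edgeR.

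Same-numbered libraries of this comparison deviated together from their group means, with correlations over genes of 0.36 to 0.48 in the 3 pairs. With the replicate number as a block within each time, a fit added after seeing the data, 11 of 13 mitochondrial members rose in UPN-1 at 72 h. That fit called 7.47% of all genes, and 4.18% of all genes were called higher. The 13 members together made up 2.01%, 1.64% and 1.52% of gene reads in DMSO replicates 1, 2 and 3. In the same-numbered GS716054 libraries they made up 2.9%, 2.48% and 1.73%. The members are parts of that same share, so their calls are not separate results. MT-CO1 rose by 0.52 (SE 0.082, adjusted p = 0.000404), MT-CO2 by 0.42 (SE 0.0757, adjusted p = 0.00139) and MT-CYB, the only mitochondrial subunit of complex III, by 0.41 (SE 0.0771, adjusted p = 0.00174) in edgeR. Among the complex I subunits, MT-ND1, MT-ND6, MT-ND4, MT-ND4L, MT-ND5, MT-ND3 and MT-ND2 rose by 0.44, 0.42, 0.38, 0.34, 0.34, 0.31 and 0.31, and MT-CO3 rose by 0.37. MT-ATP6 was at 0.30 (SE 0.0918, adjusted p = 0.0521) and MT-ATP8 at 0.09 (SE 0.286, adjusted p = 0.901), so neither complex V subunit passed.

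The treated library was higher in all 3 pairs for 8 of the 13 members. The log2 ratio of MT-CO1 was 0.60, 0.71 and 0.19 in pairs 1, 2 and 3, and that of MT-ND2 was 0.42, 0.59 and −0.12, so pair 3 showed the smallest difference. The blocked count was 4 without pair 1 (MT-CO1, MT-CO2, MT-CO3 and MT-CYB), 8 without pair 2 and 12 without pair 3. A block in which a number was shared by the libraries of both times called 0 of the 13. Over the same libraries, the mitochondrial share of gene reads went from 1.72% ± 0.256 in DMSO to 2.37% ± 0.595 with GS716054 (SD, n = 3), the mitochondrial ribosomal RNA share from 0.489% ± 0.128 to 0.627% ± 0.22, and the nuclear share from 0.583% ± 0.0773 to 0.571% ± 0.0476. The part of the ribosomal RNA share in this result was not tested. At 24 h in UPN-1 the same-numbered pairs correlated at 0.07 to 0.17, and the members had log2 fold changes of 0.17 to 0.35 with adjusted p values of 1 without a block. With the block within each time, mitochondrial members were also called there, beside 1.5% of all genes. Not every pair correlated over 0.1 there, so that count is given only with the dependence on processing. The treated library was higher in all 3 pairs for 11 of the 13 members in UPN-1 at 24 h. How many of all genes did so was not counted at either time, so these pair counts describe the members only.

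**Figure D4:**
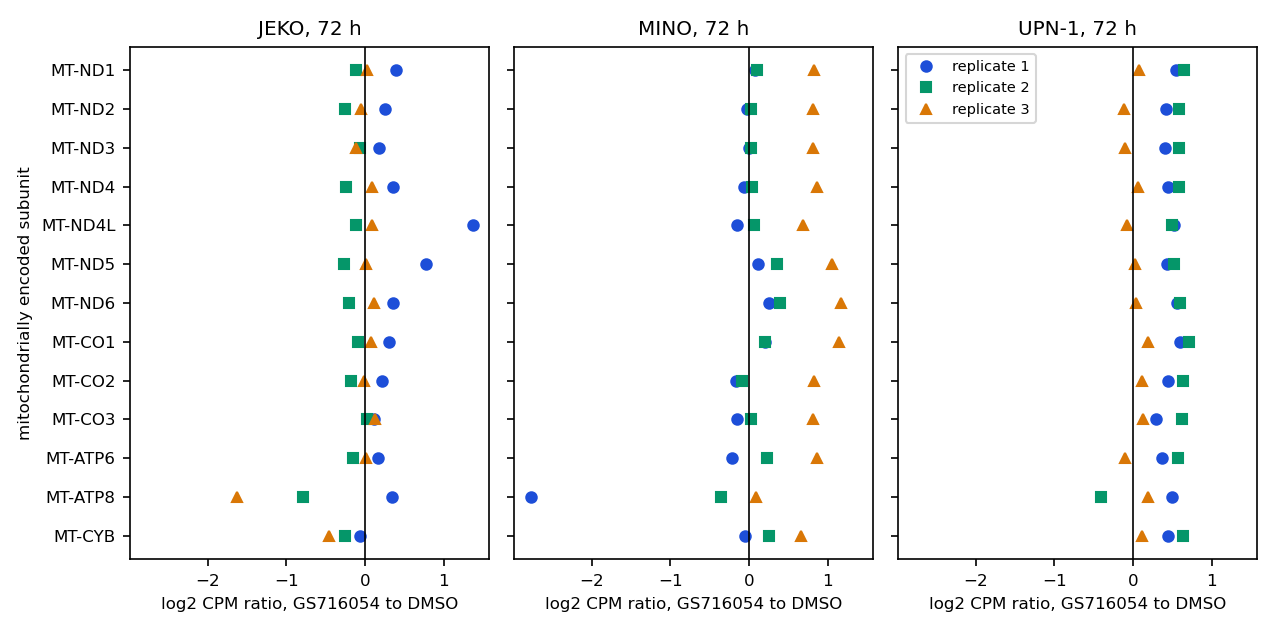
Log2 ratio of CPM, GS716054 to DMSO, in the 3 same-numbered pairs of libraries at 72 h for each mitochondrially encoded subunit, in 3 lines. In UPN-1 pairs 1 and 2 lie at or above 0.29 for every member but MT-ATP8 and pair 3 lies near 0; in MINO pair 3 lies at 0.66 to 1.17 apart from MT-ATP8.

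In MINO at 72 h, 12 of the 13 mitochondrial members had log2 fold changes above 0, but the ratios were largest in 1 pair. MT-CO1 had 17302, 11874 and 9316 CPM in DMSO and 19869, 13728 and 20566 CPM with GS716054. Apart from MT-ATP8, the log2 ratios were −0.22 to 0.25 in pair 1, −0.09 to 0.39 in pair 2 and 0.66 to 1.17 in pair 3. The DMSO libraries themselves differed in mitochondrial share, at 5.31%, 2.56% and 2.99%, against 5.24%, 3.29% and 5.13% with the inhibitor. Same-numbered pairs correlated at 0.22 to 0.48, and in the blocked edgeR fit 2 of 13 passed, MT-ND6 at 0.59 (SE 0.182, adjusted p = 0.0349) and MT-ATP8 at −1.45 (SE 0.485, adjusted p = 0.0492). That fit called 20.2% of all genes, so 2 of 13 is near its background. For MT-ATP8 the DMSO library of replicate 1 was at 32.8 CPM and the others at 1.07 and 3.27. In JEKO at 72 h no member passed without the block or with it, where the blocked fit called 3.34% of all genes, and MT-CO1 was at 0.10 (SE 0.222, adjusted p = 0.969).

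Among nuclear members, GS716054 gave calls in 1 of the 6 comparisons in the edgeR fit without a block, MINO at 72 h: SDHA, NDUFV1 and NDUFS7 fell, which is 3 of 37 tested (8.11%) beside 5.56% of all genes in either direction and 2.05% lower. SDHA, the flavoprotein of complex II that oxidises succinate, had 201, 280 and 216 CPM in DMSO and 125, 150 and 139 with GS716054. It fell by 0.76 on the log2 scale (SE 0.15, adjusted p = 0.0113 in edgeR). NDUFV1, which carries the NADH-oxidising site of complex I, went from 193, 201 and 217 CPM to 122, 112 and 137 and fell by 0.73 (SE 0.126, adjusted p = 0.00592). NDUFS7, an iron-sulphur subunit near the quinone site of complex I, went from 75.4, 66.1 and 70.7 CPM to 49.5, 38.1 and 53.7 and fell by 0.60 (SE 0.157, adjusted p = 0.0423). In each of the 3 genes every treated library was below every DMSO library, as in 9 of 37 nuclear members and 10% of all genes. NDUFS7 passed in 2 of 6 fits that left out 1 library and the other 2 genes passed in all 6, while a fit of only the 6 MINO 72 h libraries called none of them.

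The other complex II subunits of MINO did not pass at 72 h: SDHB was at −0.38 (SE 0.143, adjusted p = 0.133), SDHC at −0.06 (SE 0.112, adjusted p = 0.783) and SDHD at −0.15 (SE 0.201, adjusted p = 0.711). With the replicate block within each time, 6 of 37 fell, beside 20.2% of all genes called and 9.8% lower. The additions were CYC1 of complex III at −0.53 (adjusted p = 0.0154), UQCRC2, a core protein of complex III, at −0.45 (adjusted p = 0.0263), and ATP5MC1, a c-ring subunit of complex V, at −0.51 (adjusted p = 0.0185). Without pair 2 the blocked fit called 8 nuclear members, 3 higher and 5 lower, whereas all calls were lower without pair 1 or pair 3. The shares of all genes in these refits are not given here. At 24 h in MINO, where pairs correlated at 0.10 to 0.21, the blocked fit called 3 members lower, ATP5MC1 at −0.65 (adjusted p = 0.00545), CYCS at −0.54 (adjusted p = 0.0346) and NDUFV1 at −0.34 (adjusted p = 0.0444), beside 15.8% of all genes called and 7.36% lower. The count at 24 h was 0 or 1 when any pair was left out.

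NDUFV1 and ATP5MC1 were the members called lower at both times in the blocked MINO fits. For cytochrome c, CYCS had 346, 323 and 332 CPM in DMSO and 245, 201 and 259 with GS716054 at 24 h in MINO, and 209, 132 and 174 against 214, 80.5 and 222 at 72 h. Its groups were apart at 24 h and overlapped at 72 h. In JEKO, CYCS had the largest nuclear difference at 72 h, 0.50 (SE 0.168, adjusted p = 0.344), from 175, 168 and 175 CPM to 219, 240 and 270. In UPN-1 the largest was NDUFB8 at 0.63, which rests on 0.574 to 1.41 CPM. The medians of the nuclear members were −0.19, 0.16, −0.07, −0.15, −0.02 and −0.05 in JEKO, MINO and UPN-1 at 24 h and 72 h, line by line. The JEKO 24 h median was 0.04 without the library that stood apart, with 15 of 39 below 0 instead of 34.

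Complex II, which has no mitochondrially encoded subunit, gave no call in JEKO: SDHA was at −0.33 (SE 0.165, adjusted p = 0.64) and SDHC at 0.37 (SE 0.147, adjusted p = 0.476) at 72 h. In UPN-1 at 72 h SDHA was at −0.23 (SE 0.119, adjusted p = 0.748), and with the block within each time SDHA and NDUFS8, an iron-sulphur subunit of complex I, passed at −0.23 (adjusted p = 0.0378) and −0.24 (adjusted p = 0.028), beside 3.29% of all genes lower. Those 2 calls were lost without pair 1. At an unadjusted p under 0.05, 2 nuclear members passed at each time in JEKO, 0 at each time in UPN-1, and 4 and then 9 at 24 h and 72 h in MINO, while DESeq2 called 6 in MINO at 72 h and 0 in the other 5 comparisons. The shares of all genes at that threshold and in DESeq2 are not given here, so these counts describe the members only.

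Whether the treatment effect differed among the lines was tested on all 36 libraries in edgeR. No member passed at 24 h, where 0.106% of all genes did, or at 72 h, where 1.01% did. The lowest adjusted p was 0.628 for a mitochondrial and 0.284 for a nuclear member at 72 h. This test had no block within each time, whereas the mitochondrial calls of UPN-1 at 72 h came only with that block. It therefore cannot decide whether that pattern differs among the lines. The patterns described for UPN-1 and MINO are thus not shown to differ from those of the other lines.

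The largest movement of the nuclear members came with time in culture. In JEKO cells given DMSO, 18 of 39 nuclear members (46.2%) fell between 24 h and 72 h and 0 rose, beside 31.7% of all genes called, 14.6% lower and 17.1% higher. The median log2 fold change of the 39 was −0.57, against 0.05 over all genes tested. CYCS, the electron carrier between complexes III and IV, had 433, 470 and 493 CPM at 24 h and 175, 168 and 175 at 72 h. It fell by 1.43 (SE 0.171, adjusted p = 0.000462 in edgeR), a 2.69-fold decrease. ATP5MC1 went from 166, 185 and 180 CPM to 74.4, 65 and 59.3 and fell by 1.42 (SE 0.262, adjusted p = 0.0022). ATP5PB, a stalk subunit of complex V, went from 361, 432 and 389 CPM to 203, 217 and 210 and fell by 0.91 (SE 0.18, adjusted p = 0.00306). For 27 of 39 members all 72 h libraries were below all 24 h libraries, as for 25% of all genes tested.

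Each complex had at least 1 member called lower, beside 14.6% of all genes, and whether the shares differ between complexes was not tested. Complex V had 5 of 6 called (ATP5F1A, ATP5F1B, ATP5F1C, ATP5PB and ATP5MC1), complex III 4 of 6 (UQCRC1, UQCRFS1, UQCRQ and CYC1) and complex II 3 of 4. Complex I had 4 of 14 called (NDUFB3, NDUFB5, NDUFS1 and NDUFS3) and complex IV 1 of 8 (12.5%, below the share of all genes), COX5A at −0.81 (SE 0.232, adjusted p = 0.0184). Within complex II, SDHB fell by 0.66 (SE 0.184, adjusted p = 0.0155), SDHC by 0.65 (SE 0.147, adjusted p = 0.006) and SDHD by 0.77 (SE 0.127, adjusted p = 0.00138). SDHA, in contrast, had 175, 181 and 179 CPM at 24 h and 174, 248 and 190 at 72 h, at 0.19 (SE 0.165, adjusted p = 0.381). The catalytic subunit of complex II thus did not pass while its 3 partners did. SDHB lost its call in 3 of 6 fits that left out 1 library, whereas SDHC and SDHD passed in all 6. Of the members that fell here, 14 had a promoter in RefSeq, of which 2 held the NRF1 letters and 5 the ETS letters. Of the other 19, 0 and 4 did. Whether these letters bear on the fall was not tested.

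Mitochondrially encoded members did not follow. None of the 13 passed in JEKO DMSO culture in edgeR or DESeq2, and the median of the 13 was −0.10. An unadjusted p under 0.05 was reached by 2 of them, a count given without the share of all genes. MT-CO1 had 9923, 11425 and 8962 CPM at 24 h and 8264, 9956 and 9516 at 72 h, at −0.13 (SE 0.222, adjusted p = 0.683). The reads of the mitochondrial set per read of the nuclear set therefore went from 3.6 ± 0.359 to 5.21 ± 0.443 (SD, n = 3), with libraries at 3.19 to 3.86 and at 4.72 to 5.57. The mitochondrial ribosomal RNA share went from 0.532% ± 0.174 to 0.98% ± 0.21. The count of 18 became 9 without the DMSO 24 h library of replicate 2, 9 without that of replicate 3, and at most 14 when any 1 library was left out; CYCS, ATP5MC1 and ATP5PB passed in all of these fits.

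**Figure D5:**
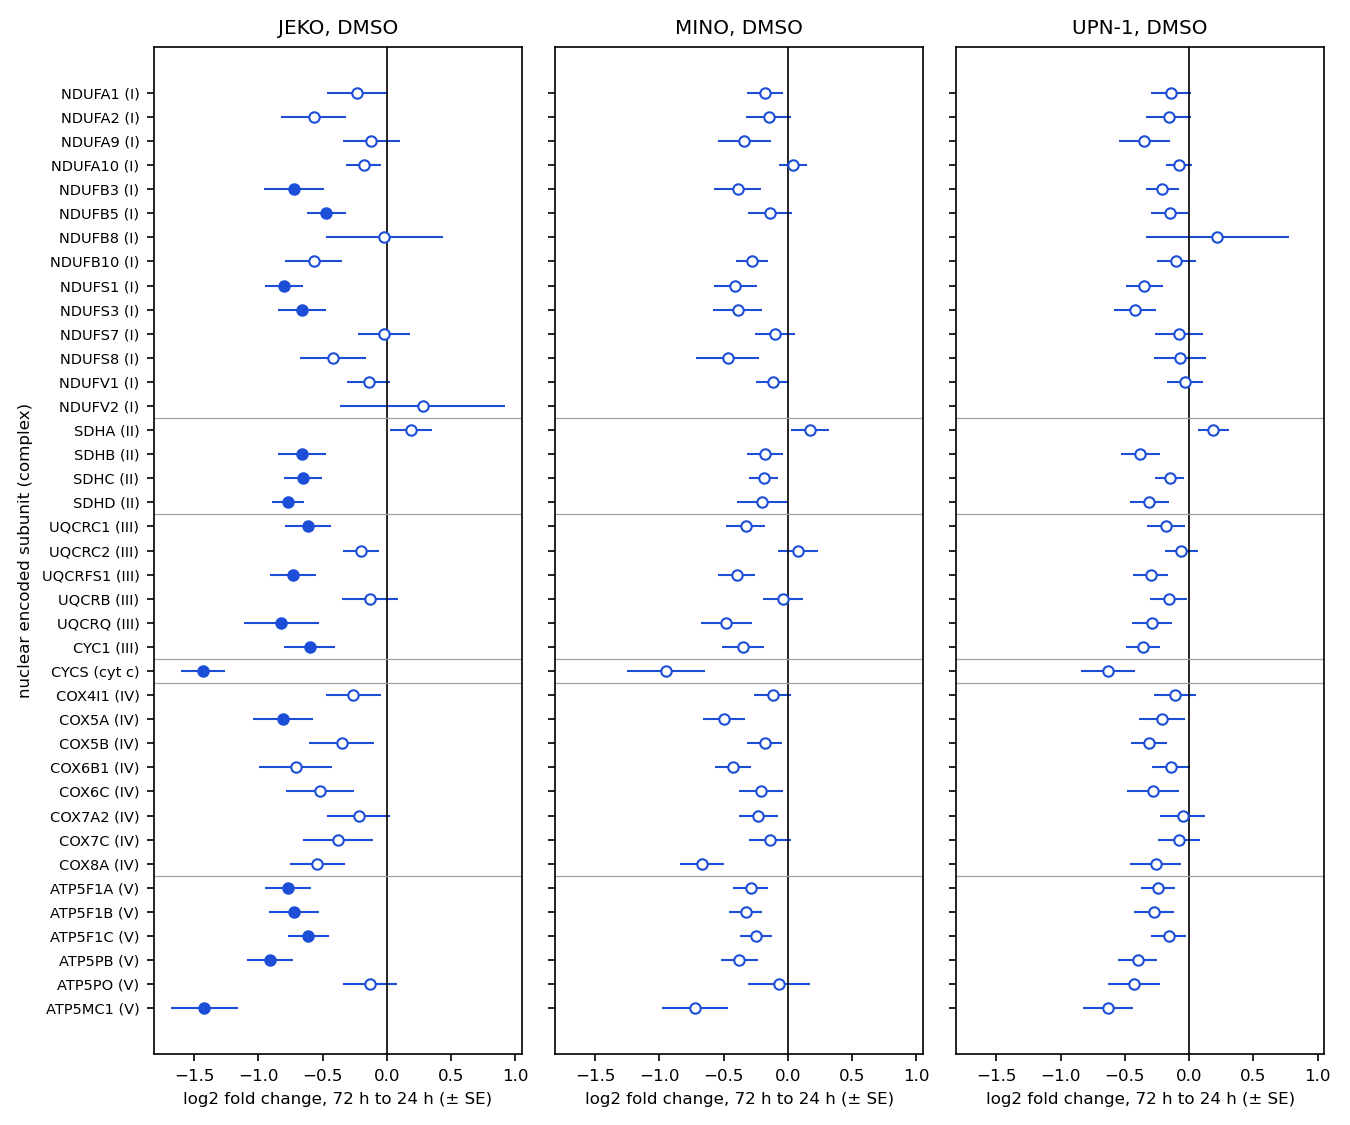
Log2 fold change ± SE of the nuclear encoded subunits in DMSO culture, 72 h against 24 h, in 3 lines, grouped by complex; filled symbols have an adjusted p under 0.05 and members that were not tested have no symbol. In JEKO 18 symbols are filled, and CYCS and ATP5MC1 lie farthest to the left in JEKO, at −1.43 and −1.42, while no symbol is filled in MINO or UPN-1.

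In MINO and UPN-1 no nuclear member passed in DMSO culture in the same test, where 0.0932% and 1.47% of all genes did. At an unadjusted p under 0.05, 11 of 37 passed in MINO and 9 of 38 in UPN-1, and DESeq2 called 4 and 2. The medians were −0.25 and −0.20, and 34 of 37 and 36 of 38 members had log2 fold changes below 0. The shares of all genes for these counts are not given here, so the counts describe the members only. CYCS had the lowest value in MINO, −0.95 (SE 0.302, adjusted p = 0.123), going from 346, 323 and 332 CPM to 209, 132 and 174. It was at −0.63 (SE 0.208, adjusted p = 0.0962) in UPN-1, going from 391, 344 and 342 CPM to 252, 145 and 292. In each of these lines the 72 h libraries lay below the 24 h libraries for CYCS. SDHA was at 0.17 (SE 0.149) in MINO and 0.19 (SE 0.119) in UPN-1, with adjusted p values of 0.491 and 0.316.

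The mitochondrial members of these 2 lines had medians on opposite sides of 0, −0.37 in MINO and 0.35 in UPN-1, with 0 called in each. MT-CO2 had 1075, 1010 and 812 CPM at 24 h and 1956, 1527 and 1225 at 72 h in UPN-1, at 0.71 (SE 0.239, adjusted p = 0.1), and the libraries did not overlap. In MINO it went from 6585, 4942 and 5420 CPM to 5711, 3232 and 3358, at −0.46 (SE 0.291, adjusted p = 0.34). Without the UPN-1 DMSO 72 h library of replicate 3, 2 mitochondrial members were called higher and 7 nuclear members lower in UPN-1. The share of all genes called in that refit is not given here, so these counts describe the members only. A test of whether the DMSO time effect differed among the lines, added after seeing the data, called 0 members and 0.167% of all genes, with a lowest adjusted p of 0.276 for a nuclear and 0.319 for a mitochondrial member.

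Other genes of the same pathway were read from lists of known function. Counts in this and the next paragraphs are from the fit without a block and stand beside the share of all genes called, which in JEKO DMSO culture was 31.7%, with 14.6% lower and 17.1% higher. Of 38 further subunits tested, 0 were called in each of the 6 treatment comparisons, and 10 fell in JEKO DMSO culture, among them ATP5PF at −1.01 (SE 0.206, adjusted p = 0.00349) and COX7B at −0.95 (SE 0.245, adjusted p = 0.0112). Among assembly factors, COA7, which is needed for complex IV, fell with GS716054 in JEKO at 24 h, from 32.1 ± 3.77 to 12.8 ± 1.02 CPM (log2 fold change −1.34, SE 0.197, adjusted p = 0.0421), and it was the 1 factor of 47 called there. In JEKO DMSO culture 15 of 47 assembly factors fell and 3 rose, beside 14.6% and 17.1% of all genes.

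Of 30 genes that transcribe and process mitochondrial RNA, 2 fell with GS716054 in MINO at 72 h, which is near the 5.56% of all genes called there (2.05% lower). LRPPRC, which stabilises mitochondrial mRNA, went from 386 ± 23.6 to 238 ± 16.4 CPM (−0.71, SE 0.122, adjusted p = 0.00592), and PTCD3, a mitochondrial ribosome protein, fell by 0.77 (SE 0.182, adjusted p = 0.0282). In JEKO DMSO culture 17 of 30 fell and 2 rose, beside 14.6% and 17.1% of all genes. TFAM, which packages and helps to transcribe mitochondrial DNA, went from 160 ± 6.48 to 88.2 ± 13.2 CPM there (−0.86, SE 0.141, adjusted p = 0.00131), while the mitochondrial mRNAs had a median of −0.10. Among 16 genes of mitochondrial DNA replication, 0 were called in the 6 treatment comparisons without a block, and 7 fell and 2 rose in JEKO culture.

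Among regulators of respiratory chain genes, MYC fell in MINO with GS716054, from 508 ± 38.8 to 177 ± 4.62 CPM at 24 h (−1.55, SE 0.138, adjusted p = 0.000724) and from 706 ± 91.1 to 220 ± 27.2 CPM at 72 h (−1.69, SE 0.138, adjusted p = 7.37e-05). No other regulator was called with GS716054 without a block, and a block over both times called 2 of 9 in MINO at 24 h. In JEKO culture 5 of 10 regulators fell, among them PPARGC1B at −1.18 and GABPA at −0.67, and 1 rose, GABPB1 at 0.35, beside 14.6% and 17.1% of all genes. Of 14 genes of the tricarboxylic acid cycle, CS (−0.55, adjusted p = 0.04) and SUCLA2 (−0.46, adjusted p = 0.035) fell in MINO at 72 h, beside 2.05% of all genes lower, and 10 fell in JEKO culture, beside 14.6%. Of 21 genes of glycolysis and lactate transport, PFKM, a phosphofructokinase, fell in MINO at 24 h (−1.07, adjusted p = 0.00572) and 72 h (−1.38, adjusted p = 0.000436), SLC16A1, a lactate transporter, fell in MINO at 24 h (−0.59, adjusted p = 0.0309), and in JEKO culture 4 fell and 5 rose, near the shares of all genes. The mitochondrial ribosomal RNAs MT-RNR1 and MT-RNR2 were not called in the treatment or culture comparisons without a block. With a block over both times, both were called in JEKO culture and 1 in UPN-1 culture, where same-numbered libraries did not pair. In MINO that block called 1536 of 15028 genes at 72 h, among them 1 further subunit, 2 assembly factors, 5 genes of mitochondrial RNA and 3 of the tricarboxylic acid cycle, and 994 of 15028 genes at 24 h, among them 3 assembly factors, 2 genes of mitochondrial RNA, 2 of mitochondrial DNA replication, 1 of the tricarboxylic acid cycle and 3 of glycolysis.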

How the data were processed

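Read counts of 58302 Ensembl gene IDs in 36 libraries were used as the authors deposited them, 1 table per library; per the labels, RNA was prepared with an mRNA kit. Per the submitters' processing notes, HISAT2 2.2.1, HTSeq 0.13.5 and the genome build GRCh38 were used; the sources used here do not give the counting options, strand setting or annotation release. Between 43.3% and 45.9% of all reads of a library lay in no feature and 1.98% to 2.6% were ambiguous; these summary lines were left out. Symbols came from GENCODE (57532 IDs matched, 770 did not).

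Counts were tested in R 4.3.3 with edgeR 4.0.16 (TMM scaling, quasi-likelihood test, low-count filter set to 10 reads per library and 15 in total), tested on simulated data first. Each line's 12 libraries were fitted together with 1 coefficient per group, which kept 16690 (JEKO), 15028 (MINO) and 15248 (UPN-1) genes; comparisons between lines used all 36 libraries (17980 genes). Calls are genes whose p, adjusted by Benjamini-Hochberg across the whole table, was under 0.05. Counts at an unadjusted p, by DESeq2, by sign, over pairs or in fits that left out a library or pair have no share of all genes beside them and describe members only. Standard errors are the absolute log2 fold change over the square root of F. CPM values use TMM-scaled library sizes over all 36 libraries. The floor of 3 reads covers counting error alone. The replicate numbers were taken to pair libraries where every same-numbered pair's deviations from the group means correlated over 0.1 (JEKO, MINO and UPN-1 at 72 h, at 0.28 to 0.56, 0.22 to 0.48 and 0.36 to 0.48, and MINO at 24 h, at 0.10 to 0.21). The labels give a replicate number and no shared day or batch, and the fit that uses these pairs was added after seeing the data.

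Named with values were every mitochondrial member, nuclear members called in a comparison (beyond 6, the 3 largest per direction), the largest nuclear difference per line at 72 h, the SDH genes, and called genes of the pathway lists; other called members are named by complex, and other genes were named after their values were seen. The members and lists were chosen with earlier results of these data known. Alternatives were DESeq2 1.42.0, its size factors in edgeR, scaling from nuclear genes, no filter, a minimum count of 50, replicate blocks, fits of 6 or 36 libraries, and leaving out each library.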

Additional observations from a re-analysis of the deposited data

How the results depend on the processing

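Counts of called members within each comparison kept within 1.5 times their value under DESeq2 size factors in edgeR, scaling from nuclear genes and a minimum count of 50 (30 of 30 counts each), and no named member's difference was reversed. The counts that moved are given by setting. Without a low-count filter, mitochondrial calls were 1 in MINO treated at 72 h, 2 in JEKO culture, 1 in MINO culture, 2 in UPN-1 culture, 1 in the test among lines at 72 h and 1 in that of culture time; nuclear calls were 1 in MINO treated at 24 h, 3 in MINO culture and 3 in UPN-1 culture. With only the 6 libraries compared, nuclear calls were 6 in MINO at 24 h, 0 in MINO at 72 h, 29 for MINO against JEKO and 25 for UPN-1 against JEKO, and mitochondrial calls for MINO against JEKO were 11. DESeq2 called 6 nuclear members in MINO at 72 h, 4 in MINO culture and 2 in UPN-1 culture, and 1 mitochondrial member in UPN-1 culture; the fit of all 36 libraries called 1 nuclear member in MINO culture. The causes were not tested. Shares of all genes called under these settings are not given here, so the counts that moved describe the members only.

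With the replicate block over both times, calls were 1 mitochondrial and 4 nuclear in MINO culture, 4 and 8 in UPN-1 culture, and 11 mitochondrial for MINO against JEKO. Pairing was not supported there, at correlations of −0.07 to 0.03 and 0.02 to 0.13 in the 2 cultures. The share of all genes beside these calls is not given here, so they describe the members only. With the replicate block within each time, calls were 3 nuclear in MINO at 24 h, 2 mitochondrial and 6 nuclear in MINO at 72 h, 11 mitochondrial and 2 nuclear in UPN-1 at 72 h, and 6 mitochondrial in UPN-1 at 24 h (beside 1.5% of all genes), where pairs correlated at 0.07 to 0.17; each of 3 libraries of one group there correlated best with its own number in the other group, which is a hint from the data only. Leaving out 1 pair gave 0 to 1 nuclear in MINO at 24 h, 1 to 5 mitochondrial and 6 to 8 nuclear in MINO at 72 h (3 of the 8 higher), and 4 to 12 mitochondrial and 0 to 7 nuclear in UPN-1 at 72 h. The shares of all genes in these refits are not given here, so the counts describe the members only. Neither block changed another count of called members by over 1.5 times; pathway list counts that it moved in MINO are given with the lists, and it also raised most list counts in MINO and UPN-1 culture from 0 or 1 to between 1 and 9.

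Leaving out 1 library gave 0 to 1 mitochondrial and 9 to 14 nuclear calls in JEKO culture, 0 to 2 and 0 to 7 in UPN-1 culture, and 2 to 6 mitochondrial calls for MINO against JEKO. These counts too stand without the share of all genes in each refit. With 3 libraries per group, small differences of the kind seen in UPN-1 may not be detectable, and low counts limit MT-ATP8, NDUFB8 and NDUFV2.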
